A study of Mus musculus with 6 samples.

Results

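The genes described here are 45 genes of the extracellular matrix and of its integrin receptors, out of 23462 gene symbols that the array carries. They were taken as a named list and split by role into 8 collagens, 12 basement membrane genes, 15 matrix glycoproteins and proteoglycans, 6 genes of crosslinking and collagen processing, and 4 integrins. All 45 had probes on the array, 73 in all. The RNA came from TM4, an established line of mouse testicular somatic cells that serves as a model of the Sertoli cell, and all samples are of this 1 line. The PNP group had been exposed to 10 µM 4-nitrophenol (PNP), a phenol present in diesel exhaust and a breakdown product of some organophosphate insecticides, for 24 h, and the untreated group to 0 µM for the same time. Each group held 3 samples, each on its own single-colour array, and the labels leave unsaid whether replicates were grown separately. The p-values therefore cover only the spread among these arrays, and part or all of it may be technical.

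The extracellular matrix is the network of secreted collagens, glycoproteins and proteoglycans that surrounds cells. Collagen chains are hydroxylated and folded into triple helices in the endoplasmic reticulum, assembled outside the cell and crosslinked by lysyl oxidases, and laminins with type IV collagen form the sheet-like basement membrane on which Sertoli cells rest in the seminiferous tubule. Integrins, which pair an alpha with a beta chain in the plasma membrane, bind these proteins and link them to the cytoskeleton.

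Every level below is the log2 of a probe's processed signal minus the 75th percentile of its array, so that 0 is a signal at that percentile. Levels are compared only between arrays for the same probe, and each difference is PNP minus untreated with its standard error (SE) from limma. Between 48.0% and 57.9% of probes were well above background on an array, no spot was saturated, and precision is limited by how few arrays there are. The arrays lay on 3 slides, and on each slide at a first or a second array position, as the file names number them. Position 1 held PNP replicate 2 and untreated replicates 1 and 3, and position 2 held PNP replicates 1 and 3 and untreated replicate 2. Slide 1 held untreated replicates 1 and 2, slide 2 held PNP replicate 1 and untreated replicate 3, and slide 3 held PNP replicates 2 and 3. Slides 1 and 3 thus held 1 group each, so outside slide 2 treatment and slide cannot be told apart. Of the marker lists, 14 of 17 Sertoli cell genes were above background on all 6 arrays, but not Amh, Fshr and Cldn11, and likewise 6 of 6 peritubular myoid genes, 3 of 6 macrophage genes, 1 of 6 germ cell genes, 0 of 6 endothelial genes and 0 of the 6 Leydig cell genes on the array. None of the markers tested passed the adjusted threshold. The median PNP difference was -0.24 over the 14 Sertoli cell markers, -0.09 over the 6 peritubular myoid markers and -0.45 over the 3 macrophage markers, and the part of these in the members' values given next was not tested. Of the macrophage genes, Adgre1 and Ptprc were above background on 0 of the 6 arrays. All samples are of 1 line, so these levels are not read as shares of cell types. In such bulk RNA, fewer cells of a type and less RNA per cell cannot be told apart.

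Matrix and integrin genes were measured in PNP-exposed cells mostly slightly below the untreated level, and no single gene changed past the adjusted threshold of 0.05. Of the 45 genes, 40 had a probe above background throughout 1 or both groups and were tested. In limma with Benjamini-Hochberg adjustment over all 21565 genes and unnamed transcripts of the array, 0 of these 40 passed, where the share of all tested features that passed was 0%. The smallest adjusted p among them was 0.451, for Col18a1. At an unadjusted p under 0.05, 2 of 40 were lower with PNP, Col18a1 and Thbs2, and none was higher. Those 2 are 5% of the tested members. Of all features, 9.95% were under that p, 6.87% higher and 3.08% lower, and of the features with a gene symbol 6.54% were, 3.64% higher and 2.9% lower. All 3 PNP arrays lay below all 3 untreated arrays for 6 members, Col18a1, Hspg2, Col4a1, Thbs2, Col6a1 and Itga6, and for no member above them. These 6 are 15% of the tested members, where 15.5% of all features had separate groups, 7.62% with PNP higher and 7.87% with PNP lower. Of the features with a symbol it was 13.8%, with 5% higher and 8.8% lower.

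The difference was below 0 for 31 of the 40 members (77.5%), against 55.2% of all features and 62.2% of the features with a gene symbol. The median log2 fold change of the members was -0.16, beside -0.04 over all features and -0.09 over those with a symbol. By role it was -0.25 over 7 collagens, -0.13 over 11 basement membrane genes, -0.08 over 12 glycoproteins and proteoglycans, -0.16 over 6 crosslinking and processing genes and -0.11 over 4 integrins. Over slide 2 alone, the 1 slide with both groups, the members' median was -0.20 and that of the collagens -0.59. There the PNP array was at position 2 and the untreated array at position 1, so treatment and array position cannot be told apart in these 2 values. With position as a block over all arrays the medians were -0.20 and -0.25. Under normexp background correction the members' median was -0.10, beside -0.06 over all features.

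**Figure D1:**
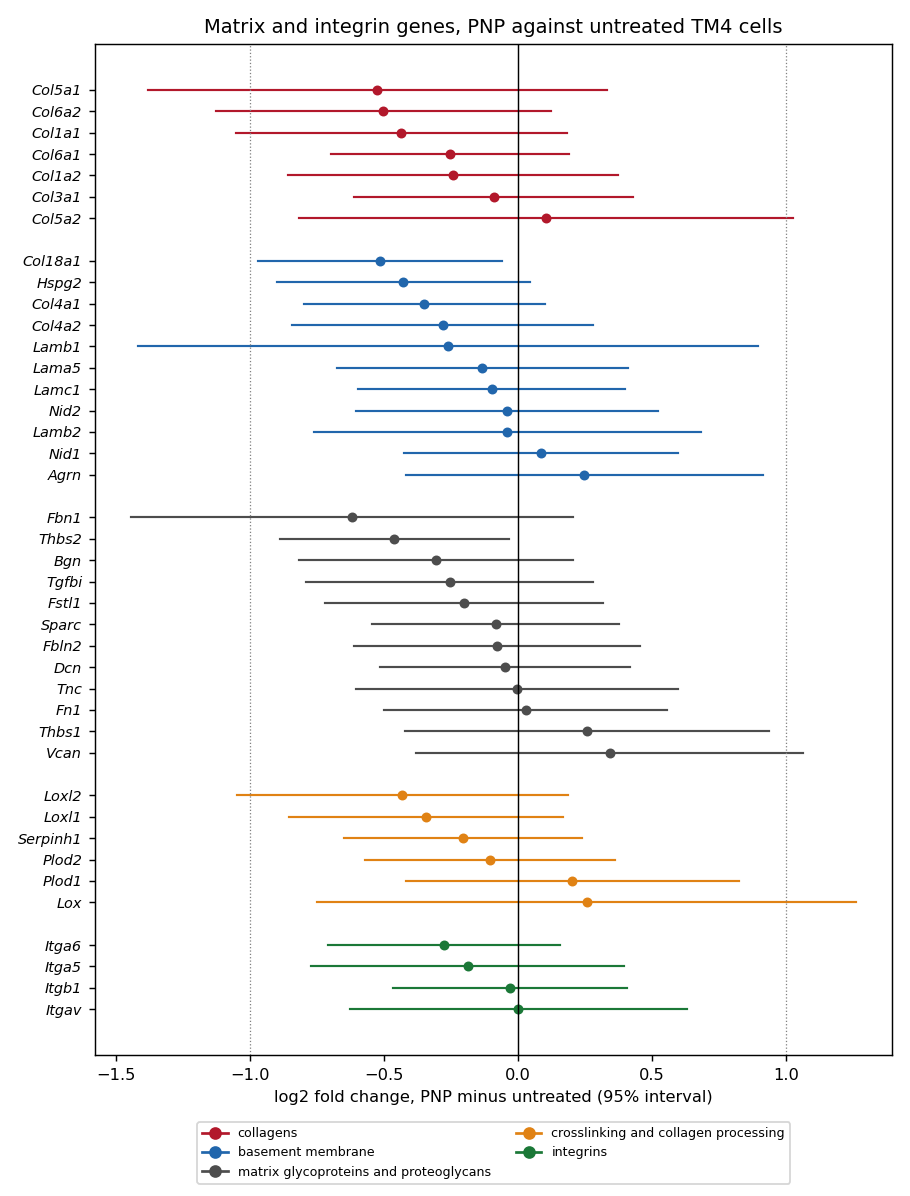
Log2 fold change, PNP minus untreated, of the 40 tested members, ordered by size within each role; points are limma estimates from 3 arrays a group (2 untreated arrays for Col1a2), bars are 95% intervals and dotted lines mark a 2-fold difference either way. Points lie below 0 for 31 members, and the interval leaves out 0 for 2 of them, Col18a1 and Thbs2.

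The intervals give the range of differences compatible with these arrays, gene by gene and without adjustment over features. On each gene's brightest probe alone, the 95% interval stayed within 2-fold either way for 31 of the 40 members (77.5%), against 70.1% of all features and 76.7% of those with a symbol. It reached 2-fold for the other 9, which were Col1a1, Col5a1, Col5a2, Col6a2, Lamb1, Vcan, Fbn1, Lox and Loxl2. Of the 40 differences, 23 were under 1 SE, 14 between 1 and 2 SE, and 3 over 2 SE. The standard deviation between replicates ran from 0.067 to 0.64 among PNP samples and from 0.025 to 1.02 among untreated samples.

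The members with the smallest p were Thbs2, which encodes the matricellular protein thrombospondin 2, and Col18a1, which encodes the basement membrane collagen whose C-terminal fragment is endostatin. Their upstream sequences are shown because they are the pair of members below an unadjusted p of 0.05. Each is the 250 bases before an annotated start, from RefSeq on GRCm38.p6, read 5′ to 3′ on the minus strand, on which both genes lie. The Thbs2 window is chr17:14694263-14694512 and the Col18a1 window is chr10:77166531-77166780. Capitals mark letter matches on either strand to 4 motifs. The GC box was searched as GGGCGG. The CCAAT box was searched by the letters of its name. The TATA box was searched as TATAAA. The AP-1 site was searched as TGAGTCA, and no matches overlapped in these windows.
Thbs2: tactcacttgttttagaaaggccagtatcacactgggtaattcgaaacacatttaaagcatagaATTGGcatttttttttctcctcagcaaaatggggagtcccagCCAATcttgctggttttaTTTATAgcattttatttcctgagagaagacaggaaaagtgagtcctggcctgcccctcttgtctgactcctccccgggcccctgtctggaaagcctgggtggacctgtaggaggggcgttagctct
Col18a1: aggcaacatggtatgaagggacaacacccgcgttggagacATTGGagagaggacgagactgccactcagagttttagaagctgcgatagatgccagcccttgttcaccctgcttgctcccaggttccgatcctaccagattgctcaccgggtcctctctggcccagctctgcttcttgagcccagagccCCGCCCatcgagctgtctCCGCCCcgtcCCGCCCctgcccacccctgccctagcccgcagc
The Thbs2 window held CCAAT letters at -186, on the opposite strand, and at -144, and TATA box letters on the opposite strand at -126, counted back from the start. The Col18a1 window held 3 GC boxes, at -61, -43 and -33, and CCAAT letters at -210, all on the opposite strand. RefSeq lists a second Col18a1 start, inside the gene, whose window (chr10:77113706-77113955) held none of the 4 motifs. RefSeq upstream windows were at hand for 29 of the 45 members. Of these members, 21 held GC box letters in at least 1 of their windows, 8 CCAAT, 5 TATAAA and 1, Col6a1, an AP-1 match. Counted by window, 24 of the members' 34 windows held a GC box, 8 CCAAT, 6 TATAAA and 1 the AP-1 letters. Over all 32851 windows of that length, 32.7% held a GC box, 33.8% CCAAT, 12.4% TATAAA and 4.46% the AP-1 letters. A match of letters is a description of the window only.

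Among the fibrillar and type VI collagens, no difference passed the test, and only Col6a1 had separate groups. Col1a1 and Col1a2 encode the chains of type I collagen, and Col3a1 that of type III. The brightest Col1a1 probe stood at 5.13, 5.84 and 5.68 in PNP replicates 1, 2 and 3, against 6.38, 5.76 and 5.82 in the untreated ones (difference -0.44 ± 0.27). The groups overlapped, with PNP replicate 1 the lowest and untreated replicate 1 the highest array. Col1a2 had 6.94, 7.03 and 7.53 in PNP cells, against 7.39 and 7.43 in untreated replicates 1 and 2 (-0.24 ± 0.26). Its spot on untreated replicate 3, which read 6.90, was marked as not uniform by the scanner software and was left out of the fit. Col3a1 stood at 5.21, 5.73 and 5.83 with PNP and at 5.81, 5.61 and 5.62 without (-0.09 ± 0.23), with the groups overlapping.

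Col6a1 and Col6a2 encode chains of type VI collagen, a beaded-filament collagen of the pericellular matrix. Col6a1 had 4.42, 4.53 and 4.60 in PNP cells, against 4.93, 4.76 and 4.63 in untreated cells (-0.25 ± 0.19). Its groups were separate, by a gap much smaller than the spread within either. Col6a2 had 2.30, 2.83 and 3.00 with PNP and 3.53, 3.30 and 2.81 without (-0.50 ± 0.27, adjusted p = 0.574 in limma), where untreated replicate 3 fell among the PNP arrays. Col5a2, a type V chain that co-assembles with type I fibrils, had -0.46, -0.06 and -0.53 with PNP and -0.27, -1.41 and 0.32 without (0.11 ± 0.40), the untreated samples spanning the wider range.

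The 3 Col1a1 probes, all designed on the same transcript record, did not give the same picture. The second stood at 5.46, 5.77 and 6.07 in PNP cells, against 5.77, 5.64 and 5.66 in untreated cells (0.07). The third was higher on every PNP array, with 5.43, 5.98 and 6.39 against 4.80, 4.58 and 5.29 (1.04 ± 0.30, unadjusted p = 0.00765, adjusted p = 0.352 in limma over all probes). The brightest probe, by contrast, had a difference of -0.44, so the direction for Col1a1 depended on the probe. Over all 17 members with more than 1 tested probe, the differences of a gene's probes spanned 0.070 to 1.48, with a median span of 0.20. They had opposite signs for 6 of the 17, namely Col1a1, Nid1, Agrn, Fn1, Thbs1 and Itga6. Of the members' 62 tested probes, 0 passed the adjusted threshold and 4 (6.45%) had an unadjusted p under 0.05, against 0% and 9.39% of all probes tested.

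**Figure D2:**
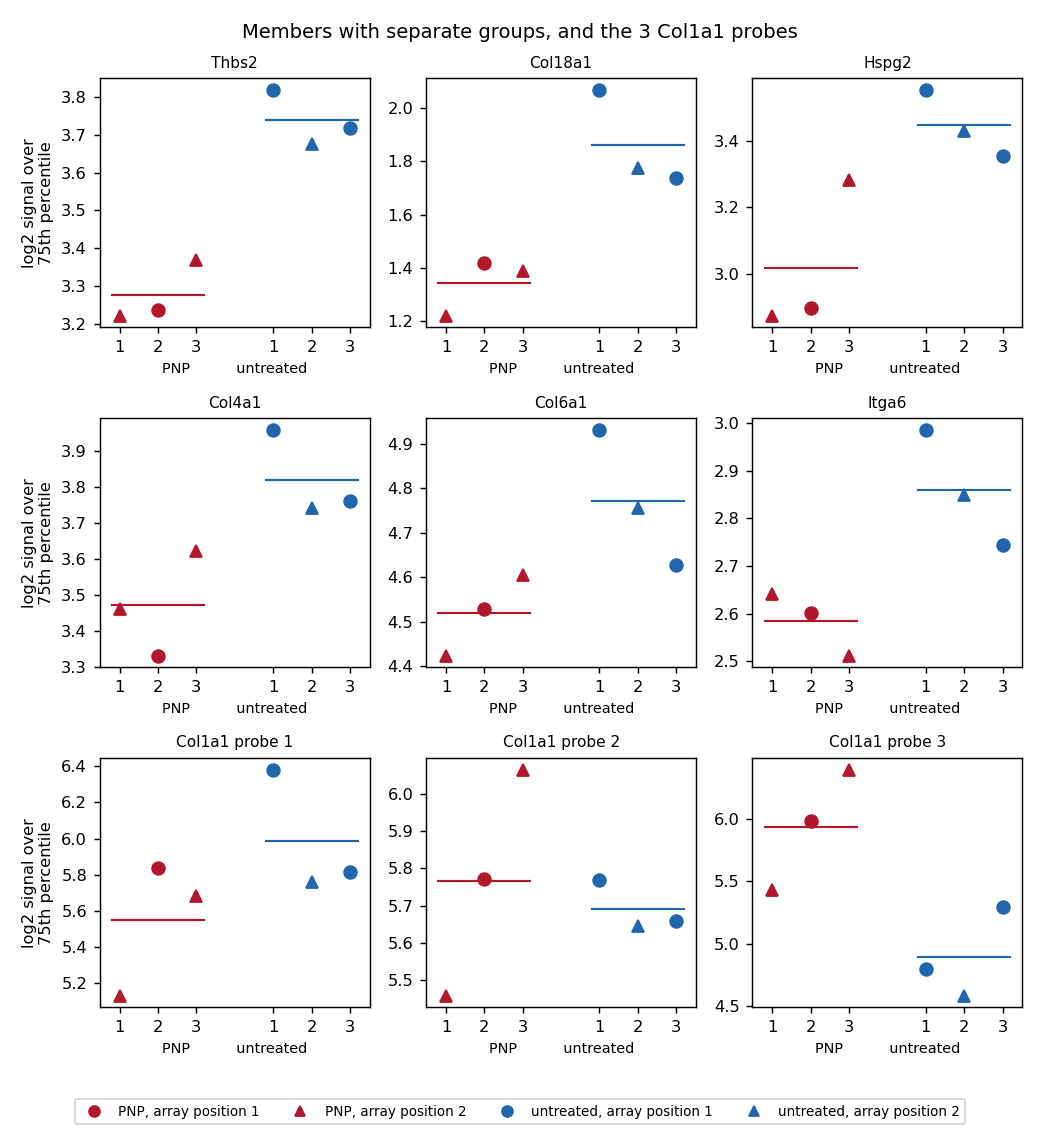
Log2 signal over the array's 75th percentile on each array for the 6 members with separate groups (brightest probe) and for the 3 Col1a1 probes; red is PNP, blue untreated, lines are group means, and circles and triangles mark array positions 1 and 2, with a separate vertical scale in each panel. The PNP arrays all lie below the untreated ones in the upper 6 panels, and above them for the third Col1a1 probe.

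Of the 11 tested basement membrane genes, 3 had separate groups, each lower with PNP. Among all features 7.87% were separate and lower, and among those with a symbol 8.8%. Whether this role held more than its share was not tested. Col18a1 had 1.22, 1.42 and 1.39 in PNP cells, against 2.07, 1.77 and 1.74 in untreated cells (-0.52 ± 0.20, unadjusted p = 0.0308, adjusted p = 0.451 in limma). Untreated replicate 1 was its highest array, and with array weights, which gave that array a weight of 9.11 and the others 0.466 to 0.798, Col18a1 passed the threshold (-0.70, adjusted p = 0.0445 in limma) together with 1377 of 21565 features. Without that array the Col18a1 difference was -0.41. Hspg2, which encodes perlecan, a heparan sulfate proteoglycan that binds laminin and type IV collagen, had 2.87, 2.90 and 3.28 with PNP and 3.55, 3.43 and 3.35 without (-0.43 ± 0.21, adjusted p = 0.534 in limma). Its second probe also had separate groups, at 0.94, 1.09 and 1.42 in PNP cells against 1.93, 1.60 and 1.47 in untreated cells (-0.52).

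Col4a1 and Col4a2 encode the chains of the common type IV collagen network. Col4a1 had 3.46, 3.33 and 3.62 in PNP cells, against 3.96, 3.74 and 3.76 in untreated cells (-0.35 ± 0.20), with separate groups. Col4a2 had 3.89, 4.03 and 4.49 with PNP and 4.57, 4.60 and 4.09 without (-0.28 ± 0.25), where untreated replicate 3 lay between PNP replicates 2 and 3. The laminin beta 1 gene Lamb1 was, on its brightest probe, the most variable member, at 3.69, 2.70 and 2.50 in PNP cells against 3.06, 2.30 and 4.31 in untreated cells (-0.26 ± 0.51). Its other 2 probes varied less, with differences of -0.43 ± 0.23 and -0.43 ± 0.28. The laminin gamma 1 gene Lamc1 stood at 3.36, 3.11 and 3.33 with PNP and at 3.47, 3.58 and 3.06 without (-0.10 ± 0.22). The groups overlapped for both laminin chains. Nid1, which encodes the linker protein nidogen 1, had 0.43, 0.27 and 0.30 in PNP cells and 0.27, -0.09 and 0.56 in untreated cells (0.09 ± 0.22), again overlapping. The other 4 tested basement membrane members, Lama5, Lamb2, Nid2 and Agrn, had differences from -0.13 to 0.25.

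Of the matrix glycoproteins and proteoglycans, Thbs2 alone had separate groups. It had 3.22, 3.24 and 3.37 in PNP cells, against 3.82, 3.68 and 3.72 in untreated cells (-0.46 ± 0.19, unadjusted p = 0.0369, adjusted p = 0.473 in limma). Under normexp background correction its difference was -0.25, and Col18a1's -0.38, and no member had an unadjusted p under 0.05. Thbs1, which encodes the related thrombospondin 1, an activator of latent TGF-beta, had a brightest probe at 3.63, 3.63 and 3.19 with PNP and 3.17, 2.71 and 3.79 without (0.26 ± 0.30). Its second probe gave -0.24. Fbn1 encodes fibrillin 1, the main protein of microfibrils, and had 2.33, 3.40 and 2.62 in PNP cells, against 3.95, 2.82 and 3.43 in untreated cells (-0.62 ± 0.36, adjusted p = 0.597 in limma), with overlapping groups. On this probe the difference was -0.32 with array position as a block, and between -0.93 and -0.34 on leaving out 1 array. The second Fbn1 probe had -1.05, 0.48 and -0.32 with PNP and 0.28, -0.96 and 0.13 without (-0.11 ± 0.44). At position 1 its PNP array read above both untreated arrays, and at position 2 its PNP arrays lay on either side of the untreated one.

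Fibronectin, the glycoprotein product of Fn1, is a ligand of the alpha 5 beta 1 integrin. Fn1 stood at 5.91, 6.21 and 6.47 in PNP cells and at 6.16, 6.41 and 5.94 in untreated cells (0.03 ± 0.23). The collagen-binding glycoprotein gene Sparc had 5.24, 5.17 and 5.50 with PNP and 5.37, 5.54 and 5.25 without (-0.08 ± 0.20). For both genes the groups overlapped and the difference was under 1 SE. Bgn, which encodes the small leucine-rich proteoglycan biglycan, had 4.99, 4.93 and 5.41 in PNP cells, against 5.52, 5.54 and 5.18 in untreated cells (-0.31 ± 0.22). Fstl1, a secreted follistatin-like glycoprotein gene, had 3.80, 4.29 and 3.92 with PNP and 4.40, 3.95 and 4.27 without (-0.20 ± 0.23). Tgfbi, which encodes a TGF-beta-induced protein that binds collagen and integrins, had -2.79, -2.61 and -2.52 in PNP cells and -2.27, -2.10 and -2.77 in untreated cells (-0.26 ± 0.24). These 3 genes also overlapped between groups. The remaining tested members of this role, Dcn, Vcan, Fbln2 and Tnc, had differences from -0.08 to 0.34.

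The crosslinking and processing genes showed no separate groups. Lox, Loxl1 and Loxl2 encode lysyl oxidases, which oxidise lysines of collagen and elastin for crosslinking. Lox stood at -0.18, -0.61 and -1.24 in PNP cells, against -0.98, -1.78 and -0.04 in untreated cells (0.26 ± 0.44), so untreated arrays were both the highest and the lowest. Loxl1 had 4.56, 4.80 and 5.08 with PNP and 5.32, 5.23 and 4.92 without (-0.34 ± 0.22, adjusted p = 0.631 in limma). Loxl2 had 2.25, 1.56 and 2.38 in PNP cells, against 2.29, 2.77 and 2.42 in untreated cells (-0.43 ± 0.27, adjusted p = 0.621 in limma). On this probe PNP replicate 2 lay far below the other arrays, and without that array the difference was -0.18. The second Loxl2 probe had 1.65, 2.26 and 1.83 with PNP and 2.68, 2.21 and 2.35 without (-0.50 ± 0.24), and there PNP replicate 2 was the highest PNP array. Serpinh1 encodes HSP47, the collagen chaperone of the endoplasmic reticulum, and had 4.14, 3.93 and 4.23 with PNP and 4.30, 4.23 and 4.40 without (-0.21 ± 0.19). Plod2, a lysyl hydroxylase gene, had 0.51, 0.91 and 0.55 in PNP cells and 0.85, 0.68 and 0.76 in untreated cells (-0.10 ± 0.20). The groups overlapped in each of these genes, with the PNP replicates of Plod2 on both sides of its untreated range. Plod1 had a difference of 0.20 ± 0.27.

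Among the integrins, Itga6, the alpha 6 chain of laminin receptors, had 2.64, 2.60 and 2.51 in PNP cells, against 2.99, 2.85 and 2.74 in untreated cells (-0.27 ± 0.19, adjusted p = 0.654 in limma), with separate groups. Its other 2 probes had differences of 0.10 and 0.45, in the opposite direction. Itga5, the alpha 5 chain of the fibronectin receptor, had 1.78, 1.63 and 2.26 with PNP and 2.08, 2.40 and 1.76 without (-0.19 ± 0.26). Itgav, the alpha v chain of vitronectin and fibronectin receptors, had 0.23, 0.56 and -0.02 in PNP cells and 0.33, -0.21 and 0.66 in untreated cells (0.00 ± 0.28). Itgb1, the common beta 1 partner, had 4.55, 4.72 and 4.64 with PNP and 4.74, 4.74 and 4.52 without (-0.03 ± 0.19). On these probes the 3 genes overlapped between the groups, and the 95% interval for Itgb1 ran from -0.47 to 0.41. The second Itgb1 probe had 4.23, 4.35 and 4.30 in PNP cells, against 4.62, 4.60 and 4.35 in untreated cells (-0.23), with groups separate by less than the rounding of these values.

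The lower median was not carried evenly by the arrays. The median deviation of the 40 members from each gene's mean over the 6 arrays was -0.18, -0.15 and 0.01 on PNP arrays 1, 2 and 3, against 0.14, 0.12 and 0.02 on the untreated arrays. Over all tested genes with a symbol the same deviations were -0.07, -0.07 and 0.03 with PNP and 0.09, 0.08 and -0.06 without, with the same signs as the members except on untreated replicate 3. For the collagens the deviations were -0.43, 0.07 and -0.04 with PNP and 0.29, -0.01 and 0.02 without, so PNP replicate 1 and untreated replicate 1 stood apart from the rest. For the basement membrane genes they were 0.04, -0.32 and 0.05 with PNP and 0.09, 0.20 and 0.11 without, where PNP replicate 2 stood apart. Different single arrays therefore held the low values in these 2 role groups.

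**Figure D3:**
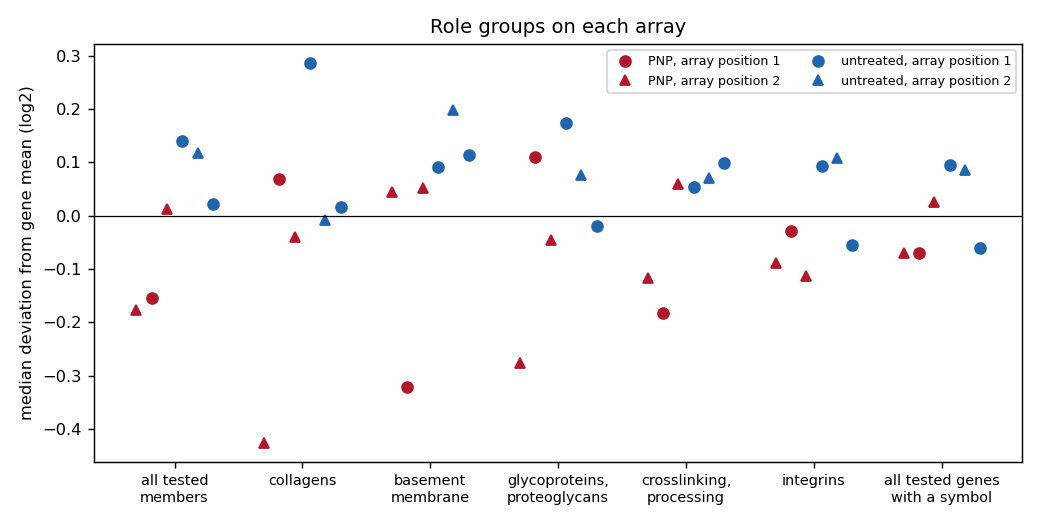
Median log2 deviation from each gene's own mean over the 6 arrays, for the 40 tested members, each role and all tested genes with a symbol; red is PNP, blue untreated, circles and triangles are array positions 1 and 2, and replicates run 1 to 3 from left to right within a group. Members lie at -0.18, -0.15 and 0.01 on PNP arrays and between 0.02 and 0.14 on untreated arrays.

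Array position on the slide was set beside PNP as a second term. With treatment and position in 1 limma fit, the position difference exceeded the PNP difference in size for 25 of the 40 members. The share over all features is not given for this count, so it is not read as particular to the members. The position difference passed the adjusted threshold for 1 member, Col5a1, where 2.62% of all features and 2.66% of those with a symbol passed. Col5a1, which encodes the chain of type V collagen that limits fibril width, read 1.38 and 1.37 on the PNP arrays at position 2 and 2.25 on the one at position 1, against 1.45 at position 2 and 2.73 and 2.39 at position 1 in untreated cells. Its position difference, position 2 minus position 1, was -0.99 (adjusted p = 0.0467 in limma), and its PNP difference was -0.53 ± 0.38 without the position term and -0.20 with it. At an unadjusted p under 0.05, 9 members (22.5%) differed between positions, 6 lower and 3 higher at position 2, against 20.5% of all features and 21.7% of those with a symbol. Arrays split cleanly by position for 12 members (30%), against 22.4% of all features and 24.4% of those with a symbol. These were lower at position 2 for Col1a1, Col5a1, Col5a2, Vcan, Fbn1, Fstl1, Tnc, Plod2 and Itgav and higher for Lamb2, Nid2 and Plod1.

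Probes of 1 gene could differ between positions in opposite directions. Vcan encodes versican, a large chondroitin sulfate proteoglycan. Its brightest probe had 0.18, 1.05 and 0.23 on the PNP arrays and 0.47, -0.36 and 0.33 on the untreated ones, a position difference of -0.80. Its other 2 probes, designed on another transcript record, had position differences of 1.11 and 1.07 (adjusted p = 0.0265 and 0.0306 in limma over all probes). The second read -0.92, -2.10 and -1.13 with PNP and -1.99, -0.90 and -2.09 without, so it was high on the 3 arrays where the first was low. The 2 Fbn1 probes both read lower at position 2, by -0.90 and -1.16 in signed difference, while the 2 Loxl2 probes had 0.59 and -0.41. The Vcan, Loxl2, Fbn1 and Lamb2 position values are shown because they were large, and were chosen after their values were seen. The part of array position in these differences was not tested beyond this fit.

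**Figure D4:**
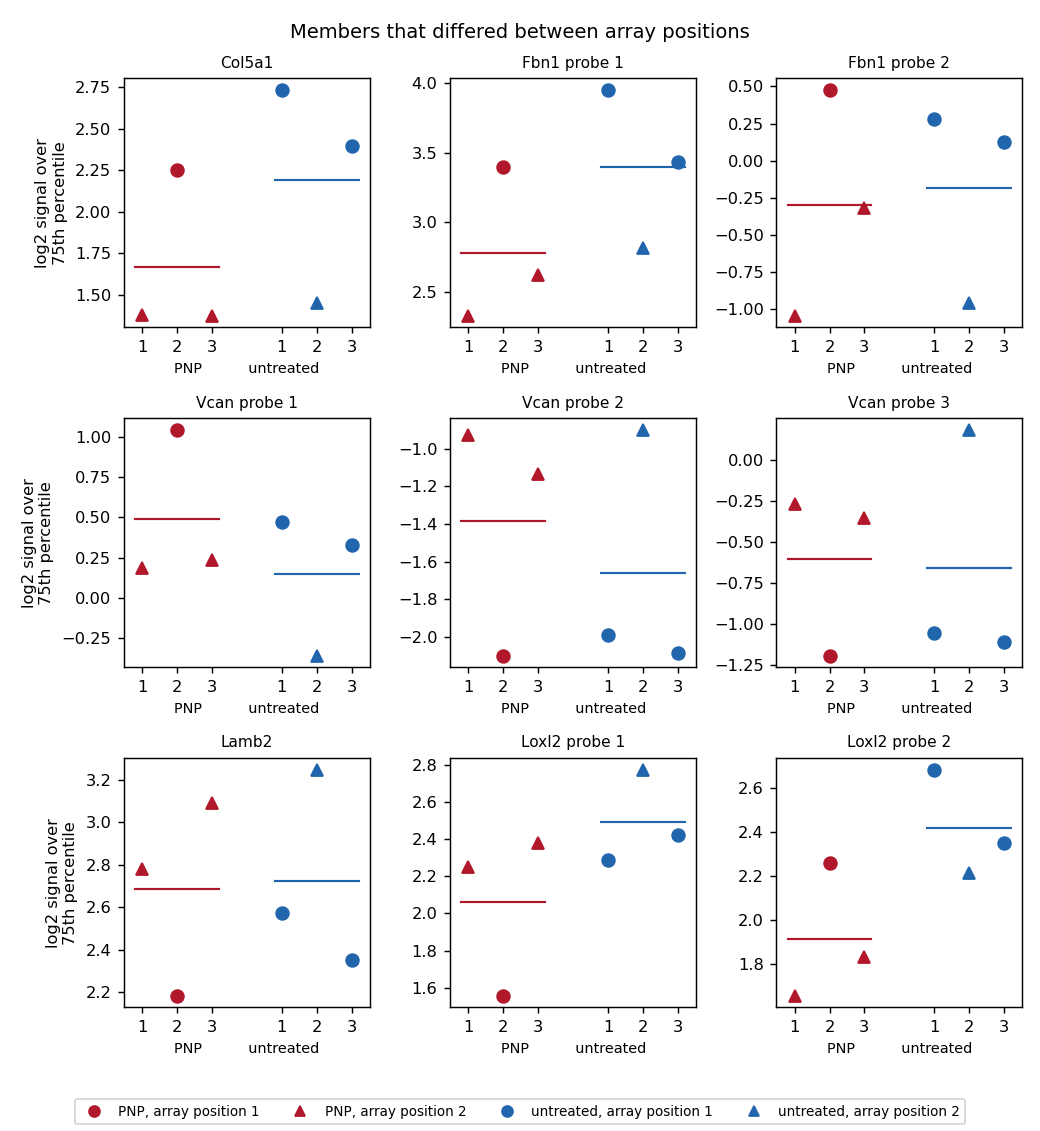
Log2 signal over the array's 75th percentile on each array for probes of 5 members chosen for their position differences; red is PNP, blue untreated, lines are group means, circles are position 1 and triangles position 2, with a separate vertical scale in each panel. Triangles lie below circles for Col5a1, both Fbn1 probes and Vcan probe 1, and above them for Vcan probes 2 and 3 and Lamb2.

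Within each position the members' median PNP difference was -0.25 at position 1 and -0.20 at position 2, with 1 array of one group in each. The sign was the same at both positions for 30 members, 25 lower and 5 higher with PNP, and opposite for 10. These counts too are given without a share over all features. With position as a block, 0 of 40 members passed the adjusted threshold in limma (0% of all features), and the smallest adjusted p was 0.236, for Vcan. With an unadjusted p below 0.05 stood 4 of the 40, against 13.7% of all features and 10.6% of those with a symbol, namely Col18a1, Thbs2 and Loxl2, which were lower, and Vcan, which was higher with PNP. In that fit Vcan differed by 0.61 on its brightest probe and Loxl2 by -0.63. Col18a1 (-0.48) and Thbs2 (-0.46) stayed near their values without the block. On the other 2 Vcan probes the PNP arrays lay below the untreated ones within each position. At position 1 these probes read -2.10 against -1.99 and -2.09, and -1.19 against -1.05 and -1.11. At position 2 they read -0.92 and -1.13 against -0.90, and -0.27 and -0.35 against 0.18. Without the block their differences were 0.27 and 0.05. The direction for Vcan within positions thus depended on the probe.

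**Figure D5:**
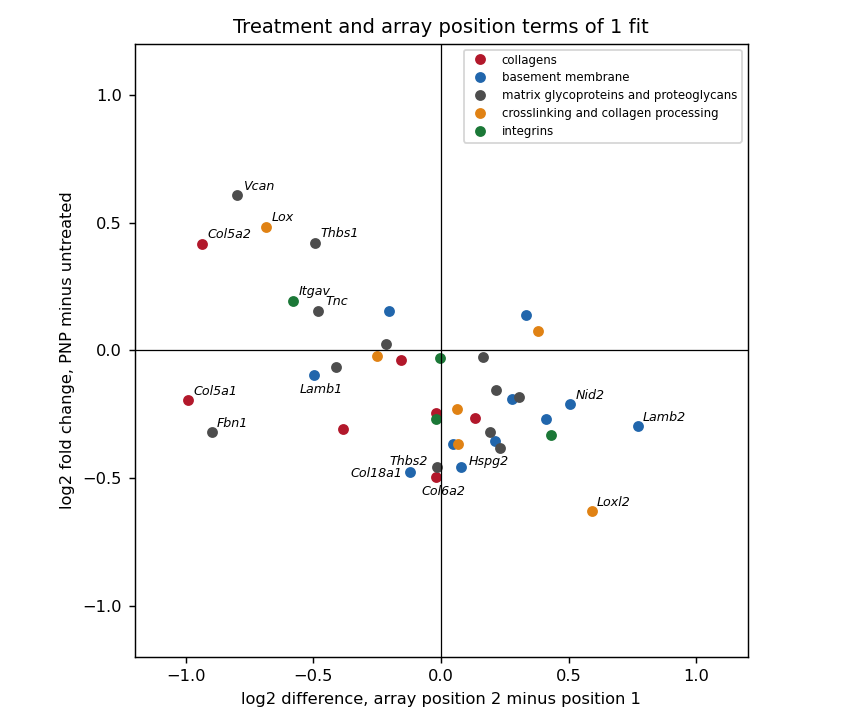
Each of the 40 tested members by its array position difference (x axis, log2, position 2 minus 1) and its PNP minus untreated difference (y axis, log2) from 1 fit with both terms, coloured by role. Col5a1 lies at -0.99 and Lamb2 at 0.77 on the position axis, and PNP differences run from -0.63 for Loxl2 to 0.61 for Vcan.

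The remaining 5 members were not tested because no probe was above background on all arrays of a group. These were Col12a1, a fibril-associated collagen gene, Lama4, a laminin alpha chain gene, Eln, the elastin gene, Lum, which encodes the proteoglycan lumican, and Postn, which encodes periostin. Lama4 and Eln were above background on 0 of 6 arrays. Lum was so only on PNP replicate 2, at -2.25. The first Col12a1 probe was above background on untreated replicate 3 alone and the second on PNP replicates 1 and 2. Postn was above it on 3 arrays with 1 probe, PNP replicate 2 and untreated replicates 1 and 2, on PNP replicate 2 with another, and on none with the third. No level or fold is given for these genes between the groups.

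A further 100 matrix and adhesion genes were set beside the members, and 78 of them were tested. Of these, 0 passed the adjusted threshold in limma, and 4 were higher and 5 lower with PNP at an unadjusted p under 0.05 (9 of 78, against 9.95% of all features and 6.54% of those with a symbol). Of the 9, 2 higher and 2 lower ones had been above background throughout only the group in which they were high, so 2 higher and 3 lower remained among the 72 genes above background on all 6 arrays. The median difference was -0.17, and 57 of 78 (73.1%) lay below 0, against 62.2% of the features with a symbol. Of the 72 genes above background on all 6 arrays, 55 lay below 0. Among 17 collagen processing enzymes, which include prolyl and lysyl hydroxylases and procollagen proteinases, 16 were below 0 with a median of -0.18, and 12 of 15 genes of the integrin adhesion complex (such as talin, vinculin and paxillin) were below 0 with the same median. The median was -0.03 over 10 other collagens, -0.32 over 7 other laminins and basement membrane proteins, -0.18 over 21 other glycoproteins and proteoglycans, and 0.00 over 8 other integrins. These medians include the 6 genes above background throughout only 1 group. For Col27a1, Col11a2, Itga1 and Itgb8 that group was PNP, with differences above 0. For Lamc3 and Fmod it was the untreated group, with differences below 0. Medians without these genes were not taken, so the lists are not compared with each other.

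The 3 of these genes with the smallest p were Ltbp1, Col27a1 and Col5a3. Ltbp1, which encodes a protein that anchors latent TGF-beta in the matrix, had 2.69, 3.52 and 3.69 in PNP cells, against 2.07, 2.37 and 2.62 in untreated cells (0.95 ± 0.30, adjusted p = 0.352 in limma). Col27a1, a fibrillar collagen gene, had -3.71, -4.02 and -3.83 with PNP and -4.24, -4.92 and -5.96 without (adjusted p = 0.373 in limma). It was above background on only 1 of the 3 untreated arrays and was tested through its PNP arrays alone, so no fold is given. Col5a3, a type V collagen chain gene, was lower with PNP, at -1.39, -1.10 and -1.03 against -0.14, -0.68 and -0.66 in untreated cells (-0.68 ± 0.23, adjusted p = 0.383 in limma). None of the 3 passed the threshold.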

How the data were processed

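Per the labels' protocols, total RNA of the 6 TM4 samples was linearly amplified and given the dye Cy3. The deposited intensity values are Agilent Feature Extraction's background-subtracted processed signals, with no scaling between arrays. The version is 11.5.1.1 per the file headers, whereas the submitters' processing notes name 10.7. The deposited log2 table of the authors follows each array's processed signal (correlation across probes at least 0.998, median 4.74 in every column), and it was used as an alternative; its scale and direction were read from that comparison and its normalization is not given in the sources used here. All columns of per-sample values were used (0 were left out).

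Of 62976 spots, 3671 were controls. Spots were averaged over each of 56605 probes without outlier spots, log2 was taken and each array's 75th percentile subtracted. Probes well above background throughout 1 or both groups (all 3 arrays) entered, 28374 in number. Genes took their brightest complete probe, or, for 86 features with none, the brightest with at least 2 arrays left in each group. Accessions were matched without versions to RefSeq (GRCm38.p6, names and upstream windows only, since the file headers name the earlier build mm9): 33767 probes had a symbol, and 13559 named genes and 8006 unnamed transcripts were tested. limma 3.58.1 in R 4.3.3 (lmFit, eBayes, two-sided, Benjamini-Hochberg over all 21565 features, threshold 0.05) compared the groups. The script was tested on simulated data. The packages data.table (1.17.8), statmod (1.5.0) and jsonlite (2.0.0) were also used.

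The members and lists were chosen with earlier results of these data known, so no list was tested. Values on every array are given for a fixed panel of members, for the 2 with the smallest p in each role and for members with separate groups; the other members are given by ranges, and the 3 further matrix genes with the smallest p are named. The alternatives were normexp (offset 50), quantile and median scaling, other percentiles and filters, blocks for array position, slide and replicate number, array weights, the mean over a gene's probes, the authors' values, and leaving out each array.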

Additional observations from a re-analysis of the deposited data

How the results depend on the processing

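The members' median stayed below 0 under every alternative run, while the median of all features, -0.04 as reported, was -0.15 under median centring and -0.14 with no filter. No member passed the adjusted threshold under any alternative except array weights, where 1 did. The count at an unadjusted p under 0.05, 2 as reported, was 0 under normexp, no filter, slide as a fixed block and the replicate block (8.18%, 6.01%, 5.4% and 6.34% of all features), 4 under median centring, position as a block, and normexp with position as a block, added after seeing the data (12.3%, 13.7% and 14%), 13 under array weights (30.3%), and 0 to 3 on leaving out 1 array (0 without PNP replicate 1 or untreated replicate 1, and 1 without PNP replicate 2 or 3). The count with separate groups, 6, was 6 to 14 with 1 array left out, where separation is easier (12 without PNP replicate 2, 13 without PNP replicate 3, 14 without untreated replicate 3). The members' median was -0.26 under median centring, -0.063 in the authors' values, -0.25 within position 1, -0.097 under normexp (all features -0.065) and -0.10 with the percentile taken over probes detected on every array (all features 0.02). The collagens' moved to -0.50 with slide as a fixed block and -0.59 between the arrays of slide 2 (added after seeing the data), against -0.25 with position as a block. For every collagen but Col1a2 both rest on the same 1 array a group, at different positions, and are not separate results. Col1a2, whose untreated spot on slide 2 was left out, enters only the fixed block. There its treatment and slide cannot be told apart. The basement membrane median was -0.29 within position 1, -0.064 under normexp and -0.26 to -0.020 with 1 array left out (-0.020 without PNP replicate 2), and the glycoproteins' -0.17 to -0.049. The crosslinking median was -0.050 under normexp, -0.26 under median centring and -0.0019 under normexp with position as a block. The integrins' median was -0.21 under median centring, -0.038 in the authors' values, -0.21 within position 2, and -0.22 to -0.061 with 1 array left out. The members past the position threshold, 1 as reported, were 4 under normexp, 3 under quantile normalization and 3 in the authors' values (all added after seeing the data), and the median position difference, -0.01, was -0.10 under quantile normalization. The cause of these moves was not tested. Of 719 alternative values for the 30 members given by array, 37 moved by over 1 SD and 1 became a call, and 15 members kept 1 sign throughout. Deviations of same-numbered replicates correlated at -0.41, -0.55 and -0.41 across features. Same-numbered arrays always lay at opposite array positions, so these values cannot decide whether the numbers paired the samples. The smallest adjusted p under the replicate block was 0.974 in limma.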
